A study of Drosophila melanogaster with 9 samples.

Results

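The 10 genes described here are the 8 Hox genes of Drosophila melanogaster (lab, pb, Dfd, Scr, Antp, Ubx, abd-A and Abd-B) and their cofactor genes exd and hth. They were chosen by name, and all 10 were found among the 17421 genes of the table. Reads from the 3′ ends of transcripts had been counted per gene in the central nervous system of 1st instar larvae, dissected by hand from homozygous animals of strains kept at 25 °C. There were 3 libraries from each of 3 genotypes. The elav5/fne larvae carried deletion alleles of both elav and fne, the elav5 larvae carried the deletion allele of elav only, and Canton-S was the wild-type strain. elav and fne encode neuronal RNA-binding proteins of the ELAV/Hu family. Both mutant genotypes carried the elav deletion allele in the whole animal, not in chosen cell types, and no fne single mutant was analysed here. The labels do not state the sex of the larvae, whether the strains share a genetic background or whether replicates came from separate animals. Background, sex and genotype therefore cannot be told apart, and a p-value here reflects how far these samples vary among themselves, which may be technical variation alone.

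Hox genes encode homeodomain transcription factors that give segments along the body axis their identity, and in flies they lie in the Antennapedia and bithorax complexes in the order in which they act from head to tail. In the central nervous system they act in neuroblasts, the neural stem cells, and in neurons, where they set which cells a segment makes and which cells die. Exd, a protein of the Pbx class, and Hth, of the Meis class, bind DNA together with Hox proteins, and Hth brings Exd into the nucleus. ELAV is known in flies to act on the processing of Hox gene RNAs in the nervous system and to favour longer 3′ UTRs in neurons. The table held a single value per gene, so lengths of 3′ ends could not be read from it.

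Values are normalised CPM, that is, read counts in units of 1000000 reads per average library. The libraries held 15241461 to 18822734 reads assigned to genes, and 3 reads, taken as the detection floor, corresponded to 0.15 to 0.196 normalised CPM. Floors and counting intervals cover counting error only. elav was at 30.4 to 71.3 normalised CPM in elav5/fne and 21.1 to 39.4 in elav5, against 1582 to 1717 in Canton-S. fne was at 278 to 522 in elav5/fne, against 4545 to 4947 in elav5 and 4422 to 5453 in Canton-S. Markers of neurons, neuroblasts and glia were detected in every genotype. The summed level of 9 neuron markers was 4046 to 4979 in elav5/fne, 6417 to 7155 in elav5 and 7434 to 7779 in Canton-S. That of 8 neuroblast markers was 892 to 1129 in elav5/fne, 301 to 459 in elav5 and 390 to 439 in Canton-S. RNA of neighbouring tissue differed between libraries: 16 muscle markers summed to 2899, 5678 and 10470 in elav5/fne replicates 1, 2 and 3, to 9036, 3223 and 1572 in elav5 replicates 1, 2 and 3, and to 1740.0 to 1896 in Canton-S. Of 14 gut markers, the trypsin genes betaTry and gammaTry were at 0 in every library, and the list summed to 2104 in elav5/fne replicate 3 and 1230.0 in elav5 replicate 1, against 23.9 to 443 in the other libraries. Values without elav5/fne replicate 3 or elav5 replicate 1 are therefore given beside several of the results.

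Reads of all 10 genes were found in the dissected Canton-S samples, which also held some RNA of neighbouring tissue. By the design of the kit, reads start at transcript ends, so the number of reads does not scale with transcript length. hth was the most abundant, at 1660.0 ± 50.7 normalised CPM (SD, n = 3), above 98.9% of the 9384 genes tested when averaged over all libraries. The Hox genes of the trunk came next. Antp, which patterns the thorax, was at 306 ± 24.7, abd-A, which acts in the abdomen, at 272 ± 11.5, Ubx, which acts in the posterior thorax and anterior abdomen, at 272 ± 27.5, and Abd-B, which acts in the most posterior segments, at 249 ± 28.5. The Canton-S libraries of abd-A and Ubx overlapped, as did those of Ubx and Abd-B, while every other pair of neighbours in the order of levels was separate. For Antp and abd-A the margin was very narrow, with the lowest Antp library at 282.9 and the highest abd-A library at 282.8. exd followed at 142 ± 14.5. The Hox genes of head segments were lower. pb, which acts in mouthpart segments, was at 33.7 ± 3.13, Scr, which acts in labial and anterior thoracic segments, at 17.0 ± 0.421, Dfd, which acts in the mandibular and maxillary segments, at 11.9 ± 1.39, and lab, the most anterior, at 1.70 ± 0.645. lab was measured by only 17 to 65 reads per library, whereas the other 9 genes had at least 169. The lowest lab count, 17 reads in Canton-S replicate 3, has an exact Poisson 95% interval of 9.90 to 27.2 reads.

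**Figure D1:**
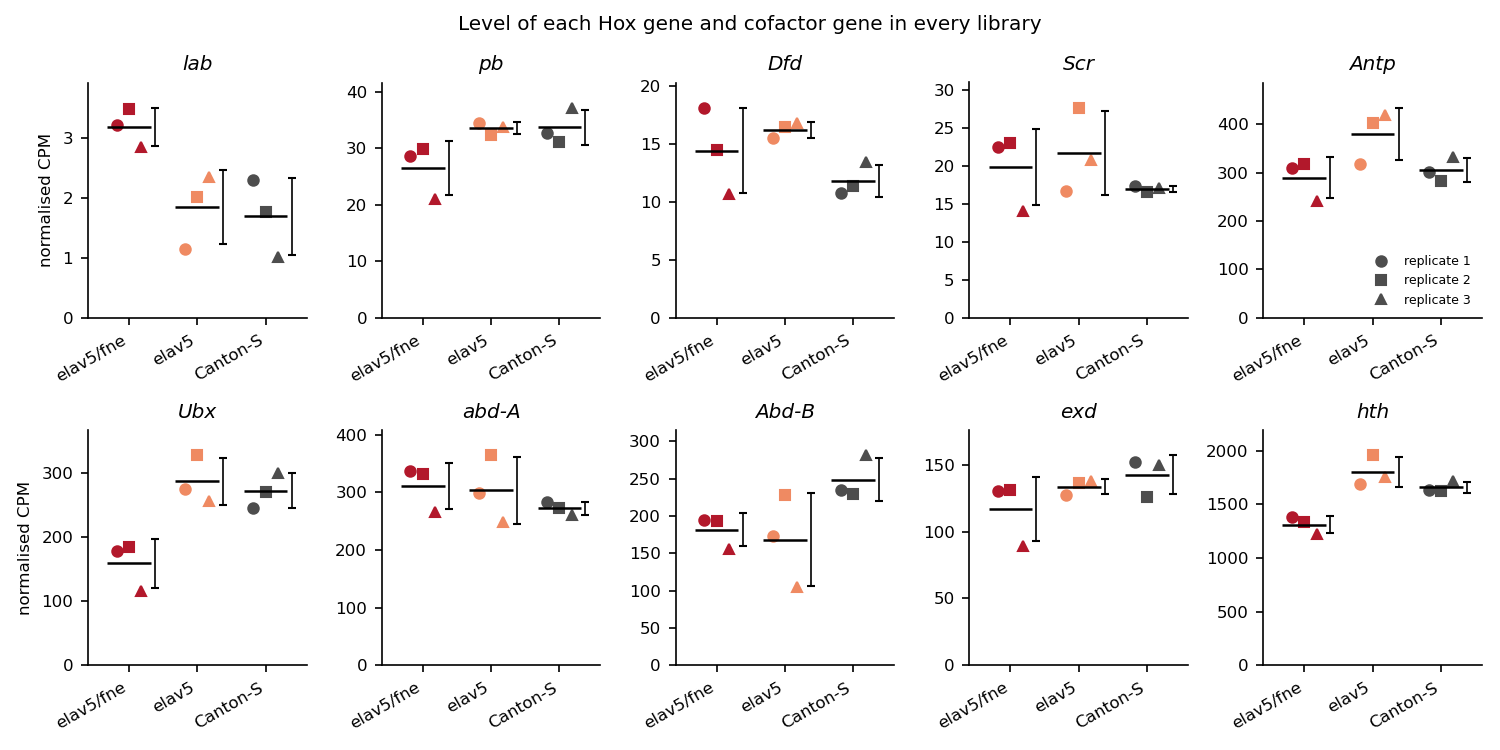
Level of each gene in normalised CPM (vertical axis, from 0) in the 3 libraries of elav5/fne, elav5 and Canton-S. Points are libraries with a symbol per replicate, horizontal lines are means and error bars SD (n = 3). pb, Ubx and hth lay lower in all 3 elav5/fne libraries than in any other library, and Abd-B lay lower in both mutants than in any Canton-S library.

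Within Canton-S libraries the 8 Hox genes shared their reads in much the same way each time. Antp held 25.3% to 26.8% of the Hox reads, abd-A 20.9% to 25.1%, Ubx 21.7% to 24.2% and Abd-B 20.6% to 22.7%. pb held 2.78% to 2.99%, Scr 1.37% to 1.54%, Dfd 0.954% to 1.08% and lab 0.082% to 0.204%. Together the 8 genes summed to 1163 ± 69.0 normalised CPM in Canton-S. In the mutants their sum was 1006 ± 155 in elav5/fne and 1212 ± 163 in elav5 (SD, n = 3 each). The elav5/fne libraries, at 1092, 1098 and 826.5, lay below those of Canton-S, at 1129, 1117 and 1242, by a narrow margin. They also lay below those of elav5, at 1133, 1399 and 1103, which overlapped Canton-S.

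In elav5/fne against Canton-S, the comparison that asks what loss of both elav and fne does, 2 of the 10 genes fell and none rose. They were Ubx and hth. Over all 9384 tested genes 43.2% passed at the 0.05 threshold after Benjamini-Hochberg adjustment in limma, 17.5% lower and 25.8% higher, so 2 of 10 is below the overall share and the lower direction is near it. Libraries of the 2 genotypes did not overlap for 5 of the 10 genes (pb, Ubx, Abd-B and hth lower, lab higher), beside 58.3% of all tested genes. For 4 of 10 they were lower, beside 23.7% of all. The median log2 fold change of the 10 genes was -0.19, beside 0.15 for all tested genes. With TMM scaling that median of all genes was 0.02 instead, and each change given here should be read relative to it. Because 1 was added to normalised CPM before taking log2, fold changes of low genes such as lab come out too small.

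Ubx was at 179, 184 and 115.2 normalised CPM in elav5/fne, 275, 327 and 257 in elav5 and 245, 270.5 and 300.2 in Canton-S. All 3 elav5/fne libraries lay below all 6 others, and the elav5 and Canton-S libraries overlapped. The elav5/fne mean was 58.5% of Canton-S. Against Canton-S, Ubx fell by 0.79 on the log2 scale (SE 0.18, adjusted p = 0.00578, limma), 0.94 below the median of all genes. Against elav5 it fell by 0.87 (SE 0.18, adjusted p = 0.00547, limma). Ubx passed in both comparisons in all 23 fits, with adjusted p of at most 0.0263 and 0.0235. In elav5 alone its log2 fold change was 0.07 (adjusted p = 0.810, limma), with a 95% interval of -0.33 to 0.47.

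hth was at 1382, 1334 and 1221 normalised CPM in elav5/fne, 1687, 1959 and 1756 in elav5 and 1638, 1624 and 1718 in Canton-S. Again the 3 elav5/fne libraries were the lowest of the 9, with the smallest spread among libraries of one genotype of any of the 10 genes there (coefficient of variation 6.29%). The elav5/fne mean was 79.0% of Canton-S. hth fell by 0.34 against Canton-S (SE 0.09, adjusted p = 0.0124, limma) and by 0.46 against elav5 (SE 0.09, adjusted p = 0.00413, limma), and it passed in all 23 fits of both comparisons. In elav5 against Canton-S its log2 fold change was 0.11 (adjusted p = 0.413, limma), a value that was -0.04 when libraries were scaled to their totals. These are bulk samples, in which fewer cells of a type and less RNA per cell cannot be told apart. Beside these falls, the summed neuron markers averaged 61.0% of Canton-S in elav5/fne and the neuroblast markers 250.2%, and their part in the result was not tested.

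Every one of the 10 genes was lowest, among elav5/fne libraries, in replicate 3, where muscle and gut RNA peaked, and which was the lowest for 40.5% of all tested genes. Without elav5/fne replicate 3 the falls against Canton-S were 0.58 for Ubx and 0.29 for hth, and both still passed (adjusted p = 0.00729 and 0.0390, limma). The falls of both genes were thus present in the other 2 double-mutant libraries.

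**Figure D2:**
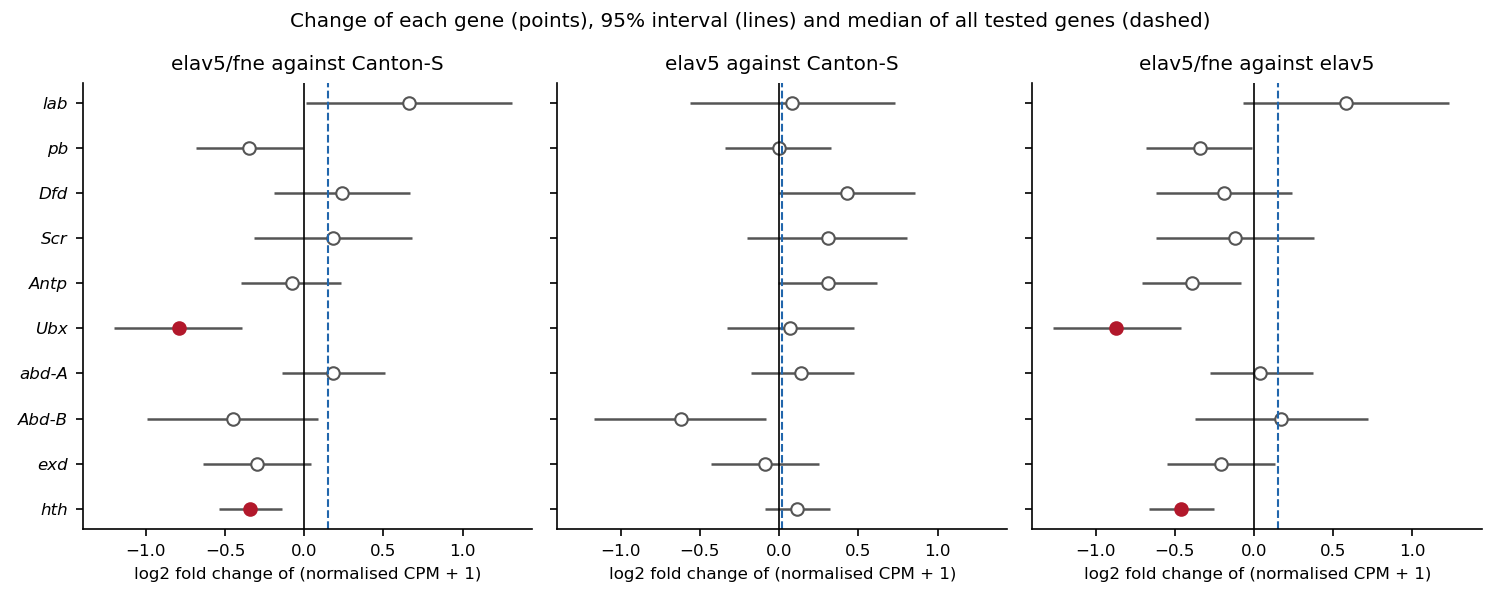
Log2 fold change on the log2(normalised CPM + 1) scale (horizontal axis) of each gene in the 3 comparisons. Points are estimates, filled red where the adjusted p was under 0.05, lines are 95% intervals and the dashed line is the median of all 9384 tested genes. Ubx and hth are the filled points in both comparisons of elav5/fne, and no point is filled for elav5 against Canton-S.

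The neighbours of Ubx in the bithorax complex did not pass with it. abd-A was at 336, 331 and 265 normalised CPM in elav5/fne, 298, 364 and 249 in elav5 and 283, 273 and 259.9 in Canton-S. Its libraries overlapped in every comparison, and its log2 fold change in elav5/fne against Canton-S was 0.18 with a 95% interval of -0.14 to 0.51 (adjusted p = 0.328, limma). Without elav5/fne replicate 3 the value was 0.29 (adjusted p = 0.142, limma). The ratio of Ubx to abd-A reads, taken inside each library and so free of scaling between libraries, was 0.532, 0.555 and 0.435 in elav5/fne, 0.923, 0.898 and 1.03 in elav5 and 0.867, 0.989 and 1.16 in Canton-S. The double mutant lay apart from both other genotypes, and those overlapped. The ratio of Ubx to Antp reads was 0.577, 0.577 and 0.477 in elav5/fne, 0.864, 0.815 and 0.611 in elav5 and 0.812, 0.956 and 0.905 in Canton-S. In elav5/fne libraries Ubx therefore held 13.9% to 16.7% of Hox reads, against 23.3% to 24.3% in elav5 and 21.7% to 24.2% in Canton-S, while abd-A held 30.1% to 32.1%, against 22.6% to 26.3% in elav5 and 20.9% to 25.1% in Canton-S. These ratios and shares were chosen for description after the levels had been seen.

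Abd-B was at 195, 194 and 156 normalised CPM in elav5/fne and 173, 228 and 104 in elav5, against 235, 229.7 and 282 in Canton-S. All 6 mutant libraries lay below all 3 Canton-S libraries, but the spread in elav5 was wide and neither comparison passed. The log2 fold change was -0.45 in elav5/fne (95% interval -0.99 to 0.09, adjusted p = 0.157, limma) and -0.62 in elav5 (95% interval -1.17 to -0.08, adjusted p = 0.114, limma). It passed for elav5/fne in 3 of 23 fits, namely DESeq2 on the reads (adjusted p = 0.0339), the fit of these 2 genotypes alone (adjusted p = 0.0173) and the fit without elav5 replicate 3 (adjusted p = 0.0290, limma), and for elav5 in 1, without elav5 replicate 2 (log2 -0.88, adjusted p = 0.0317, limma). Without elav5 replicate 3, the lowest library for Abd-B, the value for elav5 was -0.32 (adjusted p = 0.212, limma). Without elav5/fne replicate 3 the value for elav5/fne was -0.35 (adjusted p = 0.338, limma). The 2 mutants gave a similar ratio of Abd-B to abd-A reads, 0.586 ± 0.00445 in elav5/fne and 0.542 ± 0.108 in elav5, against 0.918 ± 0.143 in Canton-S (SD, n = 3 each). Between elav5/fne and elav5 the log2 fold change of Abd-B was 0.17 (95% interval -0.37 to 0.72, adjusted p = 0.632, limma).

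**Figure D3:**
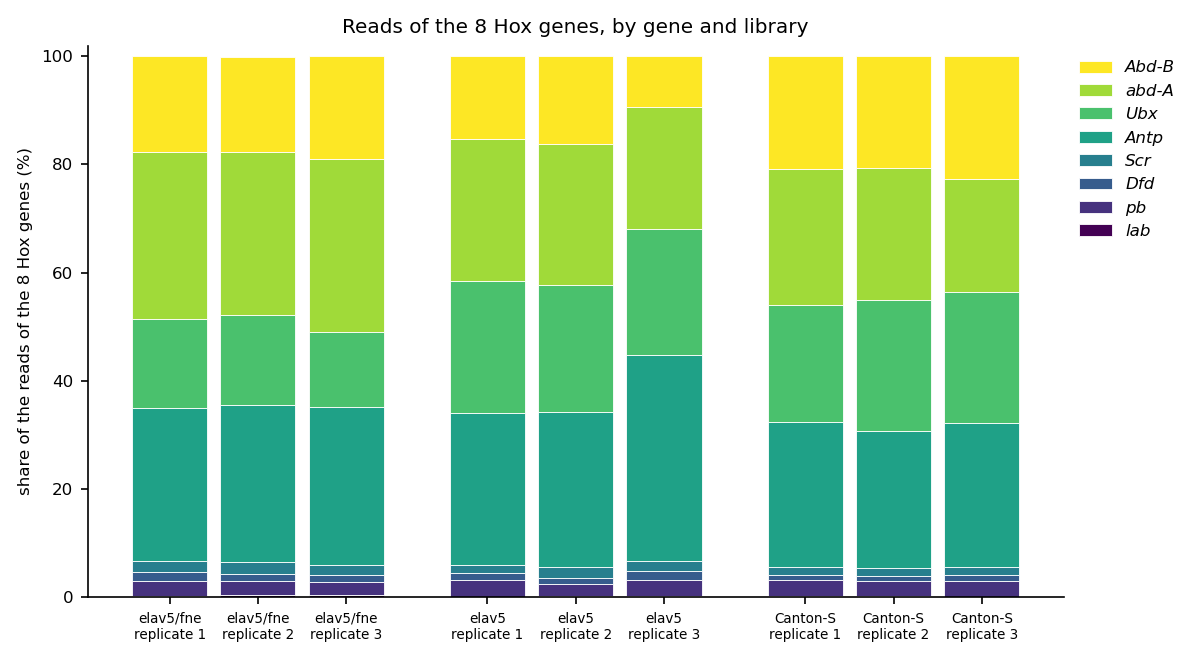
Share in percent (vertical axis) of the reads of the 8 Hox genes held by each gene, stacked from lab at the bottom to Abd-B at the top, in each library of elav5/fne, elav5 and Canton-S. The Ubx band is thinner in the 3 elav5/fne libraries, and the Abd-B band is thinnest in elav5 replicate 3, at 9.46%.

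Among the Hox genes and cofactors, Abd-B differed most between elav5 replicate 3 and the other elav5 libraries. The noncoding gene lncRNA:iab8 differed more, and how far all tested genes differed in this library was not computed. In elav5 replicate 3, Abd-B lay 0.92 and abd-A 0.40 below the mean of the other 2 elav5 libraries on the log2 scale (differences of -0.92 and -0.40), and Ubx 0.23 below (-0.23), while Antp lay 0.23 above. Of the more anterior genes, pb, Dfd and Scr differed by 0.02, 0.07 and -0.05, but lab, measured by few reads, by 0.39. lncRNA:iab8 and lncRNA:iab4, noncoding genes that lie in the bithorax complex, lay at -1.25 and -0.92 in the same library, whereas lncRNA:bxd of that complex lay at 0.18. These differences describe 1 library.

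Of the noncoding genes of the bithorax complex, 3 could be tested. lncRNA:bxd, which lies upstream of Ubx, was at 1.73, 1.56 and 0.571 normalised CPM in elav5/fne, 2.77, 3.92 and 3.86 in elav5 and 1.80, 4.78 and 5.57 in Canton-S. It fell by 1.09 in elav5/fne against Canton-S (SE 0.37, adjusted p = 0.0381, limma), a call made in 13 of 22 fits. It was lost when 1 library was left out in 5 cases: without elav5/fne replicate 2 (log2 -1.19, adjusted p = 0.0637), elav5/fne replicate 3 (-0.84, adjusted p = 0.117), elav5 replicate 2 (-1.09, adjusted p = 0.0527), Canton-S replicate 2 (-0.95, adjusted p = 0.119) or Canton-S replicate 3 (-0.86, adjusted p = 0.132). It was also lost with the replicate block (adjusted p = 0.0630). lncRNA:iab8 was at 36.8, 29.1 and 20.1 in elav5/fne and 34.6, 45.1 and 16.0 in elav5, against 48.4, 51.7 and 48.4 in Canton-S. Like Abd-B, it was lower in all 6 mutant libraries than in Canton-S without passing (log2 -0.81, adjusted p = 0.0773 in elav5/fne, log2 -0.73, adjusted p = 0.171 in elav5, limma). In elav5/fne against Canton-S it passed in 6 of 23 fits, among them the replicate block (adjusted p = 0.0451) and the fit without elav5 replicate 3 (adjusted p = 0.0122). lncRNA:iab4, transcribed from the opposite strand inside the iab8 unit, did not pass (log2 -0.56, adjusted p = 0.219). As no source used here states whether counting used strand, reads of these overlapping units may not be separable.

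In the Antennapedia complex Antp was at 310, 318 and 241 normalised CPM in elav5/fne, 319, 402 and 420 in elav5 and 302, 283 and 332 in Canton-S. The elav5/fne libraries overlapped those of Canton-S (log2 -0.08, 95% interval -0.40 to 0.23, adjusted p = 0.649, limma) but lay below all elav5 libraries. That last difference, a log2 fold change of -0.39, did not pass (SE 0.14, adjusted p = 0.0619, limma), although it did in 6 of 23 fits, such as TMM scaling (adjusted p = 0.0276) and without elav5 replicate 1 (adjusted p = 0.0199). It was -0.26 without elav5/fne replicate 3 (adjusted p = 0.179) and -0.31 without elav5 replicate 3 (adjusted p = 0.167). Antp also passed in elav5 against Canton-S in 1 fit, without elav5 replicate 1 and elav5/fne replicate 3 (log2 0.43, adjusted p = 0.0268), against 0.31 (adjusted p = 0.171) with all libraries.

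The Hox genes of the head gave no call. pb was at 28.6, 29.9 and 21.0 normalised CPM in elav5/fne, 34.5, 32.4 and 33.8 in elav5 and 32.7, 31.1 and 37.1 in Canton-S. All 3 elav5/fne libraries lay below the other 6. Its log2 fold change was -0.35 against Canton-S (SE 0.15, adjusted p = 0.0865, limma) and -0.34 against elav5 (adjusted p = 0.111, limma), and it passed in 5 and 4 of 23 fits, those with other scaling between libraries or with counts. Without elav5/fne replicate 3 the value was -0.19 in both comparisons (adjusted p = 0.268 against Canton-S and 0.318 against elav5, limma). lab was at 3.21, 3.50 and 2.85 in elav5/fne, 1.16, 2.02 and 2.36 in elav5 and 2.30, 1.76 and 1.02 in Canton-S. It was the only gene of the 10 whose elav5/fne libraries lay above all others, with a log2 fold change against Canton-S of 0.66 (SE 0.29, adjusted p = 0.0894, limma) that passed in none of 22 fits. Dfd was at 18.1, 14.5 and 10.7 in elav5/fne, 15.5, 16.5 and 16.8 in elav5 and 10.8, 11.4 and 13.4 in Canton-S. Its elav5 libraries lay above all Canton-S libraries (log2 0.43, 95% interval 0.00 to 0.86, adjusted p = 0.161, limma). Scr was at 22.4, 23.0 and 14.1 in elav5/fne, 16.7, 27.6 and 20.7 in elav5 and 17.3, 16.5 and 17.1 in Canton-S, and did not pass in any comparison. In elav5/fne against Canton-S the log2 fold changes of Dfd and Scr were 0.24 and 0.18 (adjusted p = 0.328 and 0.53, limma). Without elav5/fne replicate 3 they were 0.43 and 0.40 (adjusted p = 0.0829 and 0.146, limma). lncRNA:CR45902 lies inside Scr on the same strand at a mean level 69.5% of that of Scr, so part of the reads of either gene may belong to the other.

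exd, the partner of hth, was at 130.3, 130.8 and 89.05 normalised CPM in elav5/fne, 127, 136 and 137 in elav5 and 152, 126 and 149.8 in Canton-S. Its libraries overlapped in every comparison, and the log2 fold change in elav5/fne against Canton-S was -0.30 (95% interval -0.64 to 0.04, adjusted p = 0.136, limma). It passed in 2 of 23 fits, TMM scaling (adjusted p = 0.0402) and DESeq2 (adjusted p = 0.0303). Without elav5/fne replicate 3 the value was -0.12 (adjusted p = 0.426, limma). The ratio of hth to exd reads within a library was 11.5 ± 1.93 in elav5/fne, 13.5 ± 0.841 in elav5 and 11.7 ± 1.08 in Canton-S (SD, n = 3 each), with overlap between elav5/fne and both other genotypes. A fall of hth without exd was therefore not resolved.

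**Figure D4:**
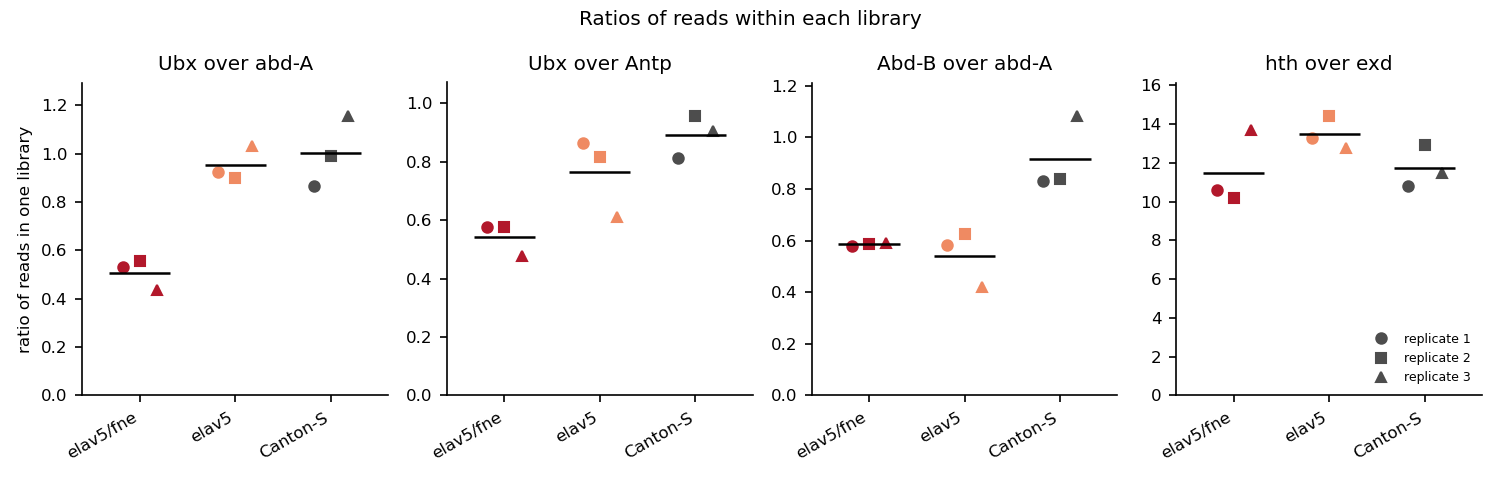
Ratios of the reads of 2 genes within each library (vertical axes, from 0) for elav5/fne, elav5 and Canton-S. Points are libraries with a symbol per replicate and horizontal lines are means. Ubx over abd-A is separate in elav5/fne, Abd-B over abd-A is lower in both mutants than in Canton-S, and hth over exd overlaps between elav5/fne and the other genotypes.

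In elav5 against Canton-S, which asks what loss of elav alone does, none of the 10 genes passed, where 15.2% of all tested genes did, 8.17% higher and 7.04% lower (limma, Benjamini-Hochberg). At an unadjusted p under 0.05 there were 2, Abd-B and Dfd, and edgeR and DESeq2 on the reads also gave 0 after adjustment. Libraries did not overlap for Dfd, higher, and Abd-B, lower, that is for 2 of 10 genes, where 35.6% of all tested genes did not overlap. The 95% intervals still allow changes, for example from -0.09 to 0.32 on the log2 scale for hth. The added loss of fne, elav5/fne against elav5, gave the same 2 calls as the comparison with Canton-S, Ubx and hth, both lower, where 30.8% of all genes passed and 12.3% were lower. Libraries did not overlap for 5 of the 10 genes (pb, Antp, Ubx and hth lower, lab higher), beside 43.8% of all tested genes. The 2 comparisons share the elav5/fne libraries.

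All members but exd lie on chromosome 3R in the BDGP6.54 annotation, which has dm6 coordinates, the build named in the submitters' processing notes. lab (6661427 to 6678590), pb (6707800 to 6742063), Dfd (6791836 to 6802428), Scr (6823120 to 6849981) and Antp (6896253 to 6999228) form the Antennapedia complex. Ubx (16656623 to 16734426), abd-A (16807214 to 16830049) and Abd-B (16927212 to 16972236) form the bithorax complex, hth lies at 10507561 to 10639568, and exd lies on chromosome X at 15992468 to 15996509. The genes that fell are both long and both annotated with several ends, traits compared after the calls were known. How common these traits are among all tested genes was not computed, and their part in the falls was not tested. hth spans 132008 bases with 5 distinct transcript ends and 3′ UTRs of 384 to 4262 bases, and Ubx spans 77804 bases with 4 ends and 3′ UTRs of 729 to 2149 bases. Antp, which did not pass, spans 102976 bases and has 3 ends, abd-A, Abd-B, exd and Scr have 2 each, and pb, Dfd and lab have 1. An antisense gene that overlaps part of hth, asRNA:CR44018, was at 1.09 ± 0.591 normalised CPM in elav5/fne, 8.49 ± 0.911 in elav5 and 10.7 ± 2.18 in Canton-S (SD, n = 3 each), and fell by 2.51 in elav5/fne against Canton-S (adjusted p = 4.7e-05, limma). It was chosen after its values were seen, and its mean level is 0.426% of that of hth.

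The genes whose pattern over the 9 libraries was most like that of each member were found among 5975 other genes whose mean reached 10 normalised CPM, by the root mean square difference of log2 values centred on each gene's mean. For Ubx they were CG42268, grn and CrzR (0.09, 0.10 and 0.11, beside a median of 0.55 over all candidates). grn, which encodes a GATA transcription factor, averaged 76.4 normalised CPM in elav5/fne, 138 in elav5 and 124 in Canton-S. For hth they were zfh2, Mp and Task6 (0.05, 0.06 and 0.06), and zfh2, a zinc finger homeodomain gene, averaged 243 in elav5/fne, 317 in elav5 and 289.8 in Canton-S. For Antp they were fd59A, UBL3 and oaf (0.06, 0.07 and 0.09), for abd-A side-V, SKIP and nsl1 (0.07, 0.08 and 0.08), for Abd-B Ten-a, cpo and trr (0.14, 0.14 and 0.15) and for exd Ccn, Dyrk3 and aralar1 (0.06, 0.08 and 0.09). The nearest to Scr was tsh (0.10), to Dfd disco (0.10), to pb Tnpo (0.08) and to lab CG31301 (0.15). Between members, pb and exd were the closest pair (0.09) and lab and Ubx the most distant (0.76). The values share libraries and scaling, so likeness is a description only.

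Regulators that keep Hox genes off or on moved in both directions. Of 20 tested Polycomb group genes, repressors of Hox genes, 2 rose, 4 fell and 14 did not pass in elav5/fne against Canton-S (median log2 -0.01, beside 0.15 for all genes). phol, which encodes a DNA-binding protein of the group, rose to 63.4 ± 6.02 normalised CPM in elav5/fne, against 42.5 ± 4.55 in elav5 and 39.2 ± 6.89 in Canton-S (log2 0.69, adjusted p = 0.00493). sxc, the O-GlcNAc transferase gene, fell to 52.2 ± 4.70 in elav5/fne, against 67.9 ± 8.09 in elav5 and 78.1 ± 5.44 in Canton-S (log2 -0.57, adjusted p = 0.00402), and jing fell to 92.0 ± 11.8 in elav5/fne, against 129.6 ± 7.85 in Canton-S (log2 -0.50, adjusted p = 0.00921). Pc itself was at 27.9 ± 4.24 in elav5/fne and 28.7 ± 2.58 in Canton-S and did not pass (adjusted p = 0.826), and neither did E(z), the histone methyltransferase gene (adjusted p = 0.755). In elav5 against Canton-S 1 Polycomb group gene fell, Pcl (log2 -0.45, adjusted p = 0.0461, limma), a call made in 12 of 23 fits and lost, for instance, without Canton-S replicate 1 (adjusted p = 0.159).

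Of 26 tested trithorax group genes, activators of Hox genes, 4 rose, 3 fell and 19 did not pass in elav5/fne against Canton-S (median log2 0.06). ash2, a subunit gene of histone H3 methyltransferase complexes, rose to 48.1 ± 4.89 normalised CPM in elav5/fne, against 28.7 ± 3.21 in elav5 and 21.0 ± 3.14 in Canton-S (log2 1.16, adjusted p = 0.000197, limma). kto, a Mediator subunit gene, rose (log2 0.69, adjusted p = 0.00465), and Bap55, a subunit gene of the Brahma chromatin remodelling complex, fell (log2 -0.84, adjusted p = 0.00137). Further listed genes of that complex did not pass in elav5/fne against Canton-S. They were osa, Snr1, Bap170, polybromo and e(y)3 (log2 -0.056, 0.196, 0.121, 0.056 and 0.015), and Bap111 and Bap60 (log2 -0.150 and -0.315). 2 other genes of that complex, brm and mor, were lower in both mutants. brm fell by 0.92 in elav5/fne and by 0.96 in elav5 against Canton-S, with 39.6 ± 8.73 normalised CPM in elav5/fne, 38.4 ± 7.43 in elav5 and 75.4 ± 13.0 in Canton-S (adjusted p = 0.00502 and 0.0134, limma). mor fell by 0.62 and 0.73 (adjusted p = 0.0131 and 0.0175, limma). Without Canton-S replicate 1 or 2 the falls in elav5 no longer passed (adjusted p = 0.0545 and 0.0594 for brm, 0.0741 and 0.0711 for mor), nor did that of mor in elav5/fne (0.0551 and 0.0518). Both genes were named after their values were seen. The balance of this list depended on scaling: 2 rose and 6 fell under TMM scaling, with a median log2 of -0.09, and the calls of trx and Utx were lost under each other scaling. Of the Polycomb group genes 2 rose and 6 fell under TMM scaling (median -0.15). The shares of regulators called, 6 of 20 and 7 of 26, stand beside 43.2% of all genes.

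**Figure D5:**
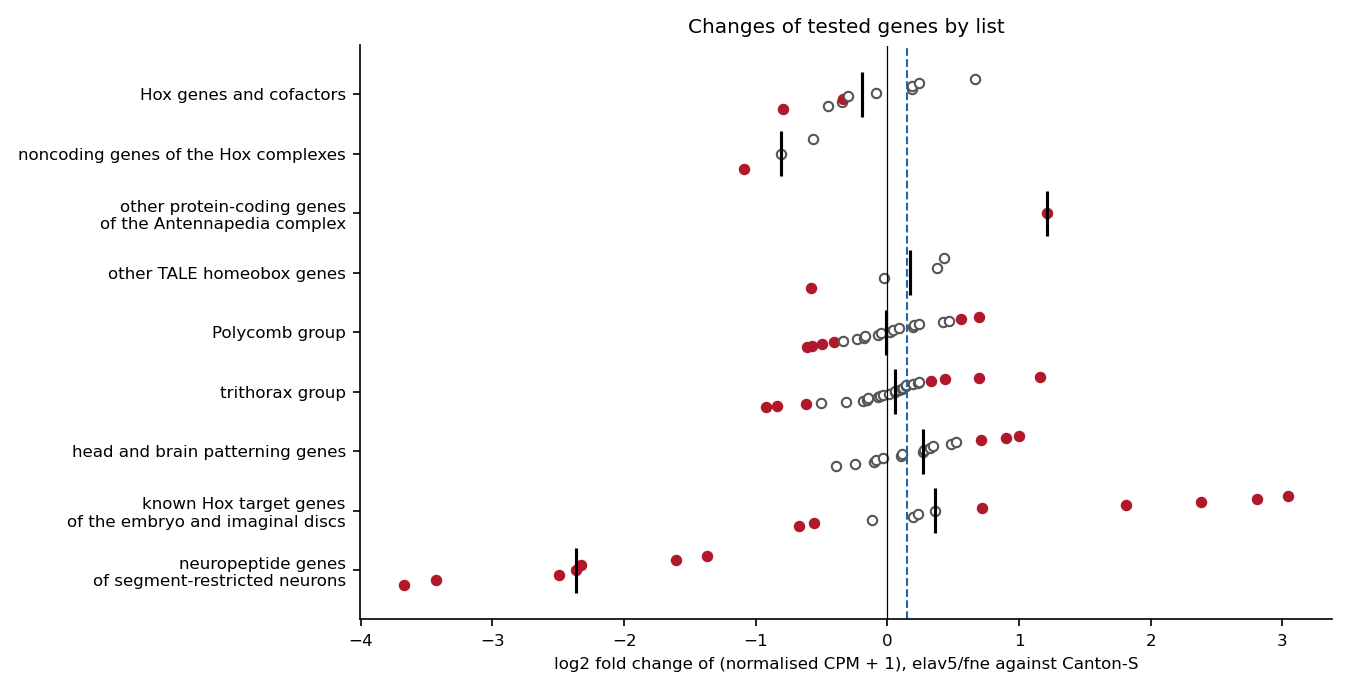
Log2 fold change on the log2(normalised CPM + 1) scale (horizontal axis) in elav5/fne against Canton-S of every tested gene of each list (rows). Points are genes, filled red where the adjusted p was under 0.05, black bars are list medians and the dashed line is the median of all tested genes. Polycomb and trithorax group genes lie on both sides, whereas the 7 neuropeptide genes of segment-restricted neurons all lie below -1.

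Of genes known as Hox targets in embryos and imaginal discs, 5 of 11 tested rose and 2 fell in elav5/fne against Canton-S (median log2 0.36, beside 0.15). Over all tested genes 25.8% rose and 17.5% fell. In the same comparison 7 of 8 neuroblast markers and 7 of 16 muscle markers rose, and their part in the result was not tested. The 3 with the smallest p were the cell death activators hid, rpr and grim. rpr was at 21.6, 22.2 and 17.8 normalised CPM in elav5/fne, 3.79, 4.96 and 4.39 in elav5 and 2.25, 2.52 and 0.539 in Canton-S (log2 3.04 in elav5/fne and 1.04 in elav5 against Canton-S, adjusted p = 5.32e-05 and 0.0496, limma). The rise of rpr in elav5 passed in only 4 of 23 fits and in none that left out 1 library (0.0522 to 0.119). hid rose by 2.81 and grim by 2.38 on that scale in elav5/fne against Canton-S (adjusted p = 1.23e-05 and 0.000399). grim was at 5.44, 4.84 and 3.68 normalised CPM in elav5/fne, 0.257, 0.261 and 1.31 in elav5 and 0.2504, 0 and 0 in Canton-S, so its fold depends on the value of 1 added to each level. The other 2 that rose were dpp (log2 1.81, adjusted p = 0.00425), a BMP ligand gene, and vg (log2 0.72, adjusted p = 0.00295), a wing selector gene. vg also rose in elav5 against Canton-S (log2 0.59, adjusted p = 0.0247, limma). That call was made in 17 of 23 fits and not, for instance, without Canton-S replicate 1 (adjusted p = 0.0936). In elav5 bs, of the same list, fell against Canton-S (log2 -0.60, adjusted p = 0.0484, limma). salm, a zinc finger factor gene, fell to 71.9 ± 7.65 in elav5/fne, against 161 ± 13.9 in elav5 and 116 ± 20.6 in Canton-S (log2 -0.67 against Canton-S, adjusted p = 0.00448), and Con, a cell adhesion gene, fell by 0.56 (adjusted p = 0.0136). tsh, a trunk factor gene, did not pass (log2 0.23, adjusted p = 0.325).

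Neuropeptide genes listed for neurons of certain segments fell together. Whether other neurons also express them was not examined, nor were other neuropeptide genes. All 7 passed in elav5/fne against Canton-S and in elav5/fne against elav5 (median log2 -2.36 and -1.98, beside 0.15 for all genes in each). Of all tested genes, 17.5% and 12.3% passed as lower in these comparisons. FMRFa, a peptide gene of thoracic neurons whose identity depends on Antp, exd and hth in embryos, was at 1.67, 2.15 and 2.41 normalised CPM in elav5/fne, 19.0, 20.6 and 21.7 in elav5 and 28.1, 36.1 and 32.4 in Canton-S. It fell by 3.43 in elav5/fne and by 0.63 in elav5 against Canton-S (adjusted p = 9.66e-07 and 0.0321, limma). The fall in elav5 passed in 16 of 23 fits, and not without any 1 Canton-S library or without elav5 replicate 1 or 2 (0.0541 to 0.117). Nplp1, another peptide gene of thoracic neurons, fell by 2.50 and Capa, a peptide gene of abdominal neurons, by 3.67 in elav5/fne against Canton-S (adjusted p = 1.46e-05 and 1.91e-05). Of the 3 genes named above, hth fell in that comparison by 0.34 and passed, while Antp and exd gave log2 fold changes of -0.08 and -0.30 without passing. The neuron markers, of which 8 of 9 fell there, moved in the same direction. Neither their part in the falls of the peptide genes nor that of Antp, exd and hth was tested.

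Genes that pattern the head and brain, which lie in front of most Hox domains, included 3 that rose and none that fell of 16 in elav5/fne against Canton-S (median log2 0.27), a smaller share than the 25.8% of all tested genes that rose. ems, a homeobox gene of the anterior brain, was at 11.1 ± 0.593 normalised CPM in elav5/fne, 4.66 ± 0.683 in elav5 and 6.37 ± 0.0671 in Canton-S (log2 0.71, adjusted p = 0.00794, limma). tll, a nuclear receptor gene, rose by 0.90 (adjusted p = 0.0118). so rose by 1.00 (adjusted p = 0.0469), a call made in 6 of 22 fits and lost, for instance, without elav5/fne replicate 3 (log2 0.73, adjusted p = 0.153), without Canton-S replicate 1 (0.80, adjusted p = 0.149) and under TMM scaling (0.89, adjusted p = 0.0678). Under TMM scaling 2 genes of the list rose and 1 fell. The neuroblast markers, of which 7 of 8 rose, moved in the same direction, and their part was not tested.

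Among other homeobox genes of the TALE class, to which exd and hth belong, mirr fell by 0.58 (adjusted p = 0.0184, limma), a call lost without elav5/fne replicate 3 (log2 -0.46, adjusted p = 0.0595) and without Canton-S replicate 1 (-0.51, adjusted p = 0.0714). ara and caup did not pass in elav5/fne against Canton-S (log2 0.43 and 0.38, adjusted p = 0.0988 and 0.129). Their elav5/fne libraries lay above all Canton-S libraries, for caup by a very narrow margin. Against elav5, ara rose in elav5/fne (log2 0.72, adjusted p = 0.0197, limma), a call made in 17 of 23 fits. achi did not pass in elav5/fne against Canton-S (log2 -0.03). Its close copy vis had 33, 38 and 46 reads in the elav5/fne libraries, against 0, 0 and 5 in elav5 and 0 in each of Canton-S, but its mean level was under the filter of 1 normalised CPM and it was not tested. ftz, a segmentation gene inside the Antennapedia complex, was under the same filter, with 49, 34 and 38 reads in elav5/fne, against 0, 3 and 1 in elav5 and 0, 2 and 6 in Canton-S. zen and bcd of the same complex had 0 reads in every library. Ama, a cell adhesion gene between the Hox genes of the complex, rose to 62.1 ± 11.5 normalised CPM in elav5/fne and 47.3 ± 15.6 in elav5, against 26.2 ± 4.49 in Canton-S (log2 1.21 and 0.79, adjusted p = 0.00228 and 0.0461, limma). Its rise in elav5 passed in 9 of 23 fits and not, for instance, without elav5 replicate 3 (log2 0.54, adjusted p = 0.0937). The antisense neighbour of Ama, lncRNA:CR45593, was at 10.2 ± 2.85 in elav5/fne, against 2.58 ± 0.393 in elav5 and 1.11 ± 0.234 in Canton-S, and reads of both may be shared where strand was not used.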

How the data were processed

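Values as deposited by the authors are a signal: read counts per gene, each library divided by its own size factor. The values themselves show it, since 100% of them come out as whole reads within 0.1 once divided by the smallest step in the column. Although the file is named for CPM, its columns total 15.67 to 18.47 times 1000000. RNA (40 ng) went into a Lexogen QuantSeq REV kit, per the labels' protocols, and the build was dm6, per the submitters' processing notes. No source used here states the aligner, counter, annotation or strand setting. Values were rescaled so that a mean library totals 1000000, and IDs were joined to symbols of BDGP6.54 (17251 matched, 170 did not).

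limma 3.58.1 (trend option) was run on log2(normalised CPM + 1), 1 model of genotype for all 9 libraries, over 9384 genes with a mean of 1 or more. The design had assumed CPM, and the test was kept. Alternatives were pseudocounts of 0.25 and 5, other filters and scalings, a replicate block, robust eBayes, fits of 2 genotypes, libraries left out, and edgeR 4.0.16 and DESeq2 1.42.0 on the recovered reads. These 2 tools called 3 and 5 of the 10 genes in elav5/fne against Canton-S. The fit was tested on simulated data. Members, lists and tests were chosen with earlier results of these data known. The genes named were all members, from each of 8 lists the 3 tested genes with the lowest p for the double mutant against Canton-S, and the genes most like each member. Others were chosen after their values were seen. Python 3.11.15 and R 4.3.3 were used.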

Additional observations from a re-analysis of the deposited data

How the results depend on the processing

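The falls of Ubx and hth in elav5/fne, against Canton-S and against elav5, kept their direction and passed in all 23 fits. Members passing in elav5/fne against Canton-S numbered 2, but 4 with TMM scaling and 5 with DESeq2. They numbered 3 with median of ratios scaling, scaling to the library total or edgeR. pb passed in each of these fits with other scaling or with counts. Members also numbered 3 in the fit of these 2 genotypes alone and without elav5 replicate 3, where Abd-B was added. Against elav5 they numbered 2, but 4 with TMM scaling, median of ratios scaling, edgeR or DESeq2. There were 3 without elav5 replicate 1, and also without both libraries high in muscle and gut genes. In elav5 against Canton-S they numbered 0, but 1 without both libraries high in muscle and gut genes, and 0 to 1 with 1 library left out. The cause was not tested. All genes passing in elav5 against Canton-S numbered 1428, but 2148 with DESeq2, 909 with the replicate block, and 707 to 1539 with 1 library left out. The lowest were 707 and 732, with Canton-S replicate 1 or 2 omitted. The other counts of all genes moved by less than 1.5 times. With other scaling the split changed: elav5/fne against Canton-S gave 2047 higher and 2161 lower genes under TMM scaling, in place of 2418 and 1638, elav5/fne against elav5 gave 1304 and 1417 under TMM scaling, in place of 1734 and 1154, and elav5 against Canton-S gave 557 and 1184 under scaling to the library total, in place of 767 and 661.

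Same-numbered libraries of different genotypes did not deviate together (r of -0.697 to 0.199 across genes for 9 pairs). With so few libraries a group, this check cannot exclude that same-numbered libraries shared a step of preparation. With the replicate block the members called were again Ubx and hth, 2 in each comparison of elav5/fne, and 0 in elav5 against Canton-S.

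24 log2 fold changes of members changed sign, all in results that did not pass. In elav5 against Canton-S, lab was at -0.017, Ubx at -0.085, abd-A at -0.014 and hth at -0.041 under scaling to the library total. abd-A in elav5/fne against elav5 was at -0.068 with TMM, -0.079 with median of ratios, -0.099 with edgeR and -0.089 with DESeq2, and Abd-B there at -0.020 with edgeR and -0.013 with DESeq2. Antp in elav5/fne against Canton-S was at 0.042 without both libraries high in muscle and gut genes. With 1 library left out, values in elav5 against Canton-S ranged from -0.11 to 0.27 for lab, -0.054 to 0.070 for pb and -0.029 to 0.15 for Ubx. Antp in elav5/fne against Canton-S ranged from -0.16 to 0.042. In elav5/fne against elav5, Scr ranged from -0.29 to 0.095, abd-A from -0.093 to 0.18 and Abd-B from -0.13 to 0.42. 3 libraries a group limit what can be seen. Of 50 genes simulated with a 1.5-fold change in elav5/fne against Canton-S, 16% were recovered, and 50% of those with a 2-fold change. The simulation gave every gene the same dispersion and changed far fewer genes than passed here. Its settings thus differ from the data, and these shares do not measure what the tests here could detect.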
